A study of Mus musculus with 6 samples.

Results

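The genes of the p53 pathway and of senescence examined here were chosen by name: Trp53, Mdm2, Cdkn1a, Cdkn2a, Cdkn2b, Ccng1, Phlda3, Gdf15, Bax and Trp53inp1. They are 10 of the 24422 genes in the count tables, and all 10 were among the 15171 genes that passed a filter on low counts. Poly-A RNA of whole kidneys was sequenced from C57BL/6 mice at postnatal day 60, all kept on iron sufficient chow (220 ppm). The controls were 3 wild-type libraries, and the other 3 were TfR1KO;KspCre, called knockouts here. In the knockouts the transferrin receptor gene Tfrc (TfR1) had loxP sites around exons 3 and 4, and Cre came from a Ksp-cadherin promoter, used in the distal nephron and collecting duct. A whole kidney also holds many cells that never made Cre. In such bulk RNA, more cells that express a gene and more RNA per cell cannot be told apart.

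The protein p53, encoded by Trp53, is a transcription factor that is held low by the ubiquitin ligase Mdm2 and accumulates after DNA damage, replication stress and other insults. Its target genes stop the cell cycle, start apoptosis or feed back on p53 itself, and Mdm2 and Cdkn1a are among the best known of them. In senescence a lasting arrest is held by inhibitors of cyclin-dependent kinases: p21, encoded by Cdkn1a, and the products of the neighbouring genes Cdkn2a and Cdkn2b. In the kidney, p21 and p16 are widely used as marks of tubular injury and ageing.

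The p53 protein binds DNA at a pair of like 10-base half-sites, each with a core of C, 2 bases A or T, and G. Abutting pairs with at most 1 of 20 bases off the p53 response element consensus, and the C and G of both cores kept, were searched within 3000 bases of each gene start in the mm9 genome, on both strands. They were found for 4 genes: Cdkn1a, Cdkn2b and Gdf15, which were called higher in the knockouts, and Ccng1, which did not pass the test. Trp53, Cdkn2a and Phlda3 were also called higher and hold no such site, and the search was made after these levels were seen. Capitals mark the cores, and each sequence runs 5′ to 3′ on the strand of its gene with 5 flanking bases on either side.
Cdkn1a site: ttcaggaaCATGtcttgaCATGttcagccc
Cdkn2b site: tacttagaCATGtccggtCTTGctcagcca
Ccng1 upstream site: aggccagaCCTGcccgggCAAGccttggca
Ccng1 downstream site: ccggaacgCAAGcccgggCTAGtctgcgcc
Gdf15 site: aggggtgaCTTGcctgaaCTTGccttttct

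The Cdkn1a sequence is at chr17:29227868-29227897 (mm9, plus strand), centred at -42 from the gene start, where negative positions are upstream. On the minus strand, the Cdkn2b sequence is at chr4:88954304-88954333, centred at 2622 inside the gene, and that of Gdf15 at chr8:73155860-73155889, centred at 480. The Ccng1 pair is at chr11:40568959-40568988, centred at -161, and chr11:40568433-40568462, centred at 365, also on the minus strand. Every one of these sites had 1 mismatch of 20. Such a site was found for 4 of the 10 genes and for 189 of 18991 protein-coding genes (0.995%), and a perfect site for 0 of the 10 and 20 of the 18991 (0.105%). The 10 were chosen by name as genes of the p53 pathway and of senescence, so these shares are not a test of p53 action. A match is only a string of letters; binding was not measured here, and genes without a match may hold p53 sites that differ more or lie farther away.

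Before the genes, the libraries. Total counts ran from 11501053 (knockout 3) to 21001341, and knockout 3 also held the most ribosomal Rn45s, at 2.59% of its counts against 0.506% to 0.745% elsewhere. The library labelled knockout 1 stood between the groups, at 9.67 on the first principal component (69.4% of variance), with controls at -72.6 to -53.2 and the other knockouts at 82.1 and 88.6. Control 2 stood apart in sex-linked RNA: it had 52 counts of Xist and between 518 and 1451 of each of 4 Y-linked genes, where every other library had at least 10458 of Xist and at most 4 of any Y-linked gene. Counts of the deleted gene did not separate the groups: Tfrc had 4368 counts in knockout 1, more than any control (2783, 2856 and 1032), while knockouts 2 and 3 had 1713 and 530. Such counts take in exons other than 3 and 4 and cells that never made Cre. Its log2 fold change was -0.11 (SE 0.62, adjusted p 0.911) with all libraries and -0.96 (adjusted p 0.178) without knockout 1, so these counts do not check the labels, and knockout 1 is so called by its label alone. Cdh16, which encodes Ksp-cadherin, was at -0.26 (SE 0.29, adjusted p 0.545).

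Of the 10 genes, 6 were higher in knockouts: Trp53, Cdkn1a, Cdkn2a, Cdkn2b, Phlda3 and Gdf15. A call is an adjusted p under 0.05 in edgeR's quasi-likelihood test, adjusted over all genes tested, and these 6 of 10 stand beside 10.6% of all tested genes called higher, 6.64% called lower and 17.2% called in either direction. The 3 knockouts lay above the 3 controls for 8 of the 10, beside 23.8% of all tested genes. Fold changes were positive for 9 of the 10, with a median log2 value of 1.08 against 0.02 over all genes tested, and the median was the same with Cdkn2a at its bound. Called lower were 0 of the 10 by edgeR, DESeq2 or limma-voom, and 0 had an unadjusted p under 0.05 in that direction.

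These calls lay near the threshold and depended on single libraries. Leaving out control 1, control 2 or control 3 each gave 0 called of 10 in edgeR, with 0 of all genes tested called as well. An unadjusted p under 0.05 was then had by 7, 7 and 8 of the 10, beside 31.0%, 27.4% and 30.9% of all genes. Called genes numbered 7 of 10 without knockout 1 (beside 18.0% of all genes called higher), 3 without knockout 2 (Cdkn1a, Phlda3 and Gdf15, beside 0.435%) and 0 without knockout 3 (beside 0.0130%). In the last of these fits 8 of the 10 had an unadjusted p under 0.05, beside 28.9% of all genes. With DESeq2's Wald test, 8 of the 10 were called, since Trp53inp1 and Bax were added, beside 17.2% of all genes called higher by that test. No exact permutation test of 3 against 3 libraries can go below p = 0.1, the value reached by each of the 8 genes whose groups did not overlap.

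**Figure D1:**
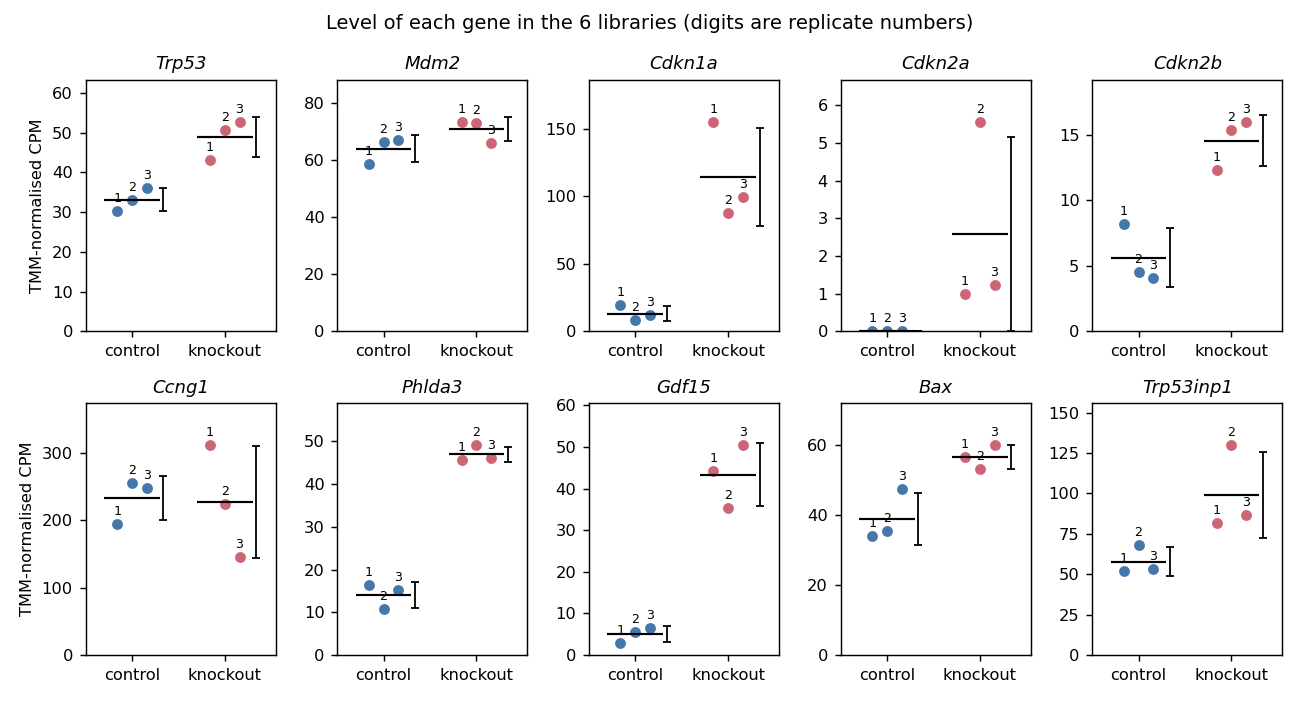
Level of each of the 10 genes in the 6 libraries, in TMM-normalised counts per 1e6 (CPM, vertical axes from 0, a different scale in each panel). Points are libraries numbered by replicate, horizontal lines are group means and bars are 1 SD (n = 3). The knockouts lie above all controls for 8 genes and overlap with them for Mdm2 and Ccng1.

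Trp53 itself (chr11:69393861-69405375, plus strand, mm9) rose modestly. It was at 30.3, 33.0 and 36.1 CPM in controls 1 to 3 and at 43.2, 50.7 and 52.8 CPM in knockouts 1 to 3, where CPM are counts per 1e6 of a library after TMM scaling. The lowest knockout, replicate 1, was above the highest control. Group means were 33.1 ± 2.95 CPM (SD, n = 3) and 48.9 ± 5.04 CPM (SD, n = 3), a log2 fold change of 0.56 (SE 0.14, adjusted p 0.0415). Over 17 alternative analyses this value stayed between 0.48 and 0.84, with adjusted p from 0.0110 to 0.139 and 10 calls. RNA says nothing of the amount of p53 protein, which is set mainly by its degradation.

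Mdm2 (chr10:117125944-117147814, minus strand) encodes the ligase that marks p53 for degradation and is itself a classic p53 target. Controls held 58.6, 66.5 and 67.2 CPM of it, and knockouts 73.6, 73.2 and 66.0 CPM. Knockout 3 lay below the highest 2 controls, so the groups overlapped. The means, 64.1 ± 4.78 and 70.9 ± 4.24 CPM (SD, n = 3 each), gave a log2 fold change of 0.15 (SE 0.12, adjusted p 0.411), and the exact permutation p was 0.3. With library size alone as the scaling, which moved the median of all genes from 0.02 to 0.29, Mdm2 was called at 0.42 (adjusted p 0.0464), as the single call among the 17 alternatives, whose adjusted p ran up to 0.789.

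Cdkn1a (chr17:29227924-29237667, plus strand) encodes p21, the inhibitor through which p53 halts the cell cycle. Controls 1 to 3 held 386, 139 and 197 counts and knockouts 1 to 3 held 3164, 1740 and 1300. In CPM these were 19.2, 8.17 and 11.8 against 155.3, 87.3 and 99.6. The lowest knockout was far above the highest control. Means rose from 13.1 ± 5.62 to 114.1 ± 36.2 CPM (SD, n = 3 each). The fold fitted by edgeR was 8.71, or 3.12 on the log2 scale (SE 0.38, adjusted p 0.0271). With log2 fold changes ordered from the most positive to the most negative, it ranked 222 of the 15171 genes tested. Over the alternatives the log2 value ran from 2.83 to 3.49, with 11 calls of 17 and adjusted p from 2.63e-13 (DESeq2) to 0.118 (without control 2).

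Cdkn2a (chr4:88920377-88940557, minus strand) encodes 2 unlike proteins from overlapping reading frames, the kinase inhibitor p16Ink4a and p19Arf, an inhibitor of Mdm2. A count per gene cannot split them. No read was counted in any control, whereas knockouts 1 to 3 held 20, 111 and 16 counts, or 0.982, 5.57 and 1.23 CPM. Against a floor of 3 counts per control library (0.169 CPM on average), the knockout mean of 2.59 ± 2.58 CPM (SD, n = 3) was at least 15.4-fold higher. That bound was 6.55-fold without knockout 2, which held most of the counts, and 20.2-fold and 19.4-fold without knockout 1 or 3. The gene was called (adjusted p 0.0355; 8.07e-06 to 0.118 over 16 alternatives), but it passed the filter on low counts only through the knockouts. Where at least 10 counts were asked of every library, it was not tested, and 5 of the other 9 genes were called, beside 1385 of 13815 genes (10%) called higher under that filter.

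Cdkn2b (chr4:88952198-88956941, minus strand), the neighbour of Cdkn2a, encodes p15, an inhibitor of the cyclin D kinases. Controls had 8.21, 4.53 and 4.08 CPM and knockouts 12.3, 15.4 and 16.01 CPM. Control 1 was the high control and knockout 1 the low knockout, and the groups did not meet. From 5.61 ± 2.27 to 14.6 ± 1.97 CPM (SD, n = 3 each), the log2 fold change was 1.37 (SE 0.32, adjusted p 0.0367). It stayed between 1.19 and 1.74 over the alternatives, of which 10 gave a call, with adjusted p between 0.000891 and 0.126.

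Phlda3 (chr1:137662696-137665713, plus strand) is a p53 target that blocks the kinase AKT at the membrane. Its counts were 329, 181 and 255 among controls against 931, 978 and 602 among knockouts, or 16.4, 10.6 and 15.3 CPM against 45.7, 49.1 and 46.1 CPM. Among the 10 genes it was the most even across knockouts, whose highest value was 1.07 times the lowest. The means were 14.1 ± 3.05 and 47.0 ± 1.84 CPM (SD, n = 3 each), 3.33-fold apart, with a log2 fold change of 1.73 (SE 0.19, adjusted p 0.0271). Alternatives gave 1.56 to 1.99, with adjusted p from 6.68e-12 to 0.118 and 11 calls.

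Gdf15 (chr8:73153292-73156355, minus strand) encodes a secreted stress cytokine of the TGF-beta family that p53, among other factors, can induce. It was scarce in controls, with 58, 94 and 109 counts (2.89, 5.52 and 6.54 CPM), and held 900, 706 and 658 counts in knockouts (44.2, 35.4 and 50.4 CPM). No knockout came near a control. Means were 4.98 ± 1.89 and 43.3 ± 7.52 CPM (SD, n = 3 each), and the log2 fold change was 3.12 (SE 0.33, adjusted p 0.0271), or 8.71-fold. Its rank, 223, was the one after that of Cdkn1a. Across the alternatives the value was 2.82 to 3.40 and the adjusted p 7.84e-16 to 0.118, with 11 calls.

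Neither Bax nor Trp53inp1 passed the test, although the groups of both were apart. Bax (chr7:52717065-52722268, minus strand), which forms pores in the mitochondrial outer membrane in apoptosis, had 34.1, 35.4 and 47.6 CPM among controls and 56.7, 53.1 and 60.0 CPM among knockouts. Groups did not overlap, but the log2 fold change of 0.54 (SE 0.16) missed the threshold with an adjusted p of 0.0628. Over the alternatives Bax had adjusted p from 0.0267 to 0.203 and 2 calls. Trp53inp1 (chr4:11083578-11101526, plus strand) encodes a nuclear protein that p53 induces and that promotes p53 phosphorylation and autophagy. Levels were 52.0, 68.1 and 53.01 CPM for controls and 81.4, 129.8 and 86.6 CPM for knockouts, without overlap and with knockout 2 standing high. A log2 fold change of 0.78 (SE 0.22) came with an adjusted p of 0.0518, just outside the threshold, and 5 of 17 alternatives called it (0.0172 to 0.144). Trp53inp1 was called without knockout 1 (adjusted p 0.0241).

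Ccng1 (chr11:40562054-40568813, minus strand) encodes cyclin G1, a p53 target that recruits phosphatase 2A to Mdm2. Controls held 195.3, 255.8 and 247.4 CPM and knockouts 311.6, 225.0 and 145.0 CPM. Knockout 1 was above all controls and knockout 3 below all of them, so the knockouts spanned the control range. Means of 232.9 ± 32.8 and 227.2 ± 83.3 CPM (SD, n = 3 each) gave a log2 fold change of -0.04 (SE 0.29, adjusted p 0.940), with an exact permutation p of 0.8. Its sign changed with the scaling, and the value lay between -0.34 and 0.23 over the alternatives with 0 calls by any tool. The 2 sites printed above for Ccng1 thus belong to a gene whose groups overlapped.

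**Figure D2:**
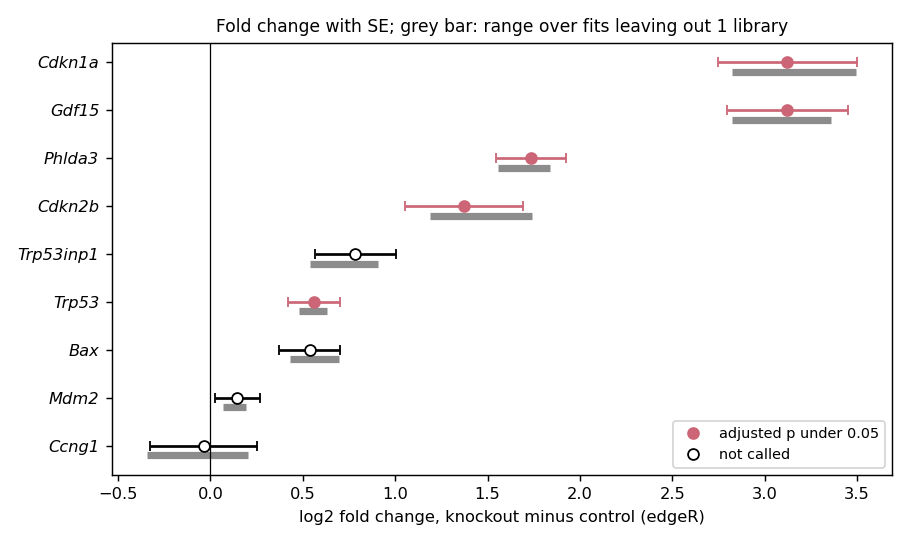
Log2 fold change of 9 genes, knockout minus control, from edgeR (points, with bars of 1 SE), and the range over the 6 fits that each leave out 1 library (grey). Filled points passed an adjusted p of 0.05; Cdkn1a and Gdf15 lead at 3.12, and the grey range crosses 0 for Ccng1 alone. Cdkn2a is left out because its controls were all at 0.

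Levels of different genes can be compared only roughly, per kilobase of all annotated exons merged. That length can exceed the transcript: for Trp53 it is 4045 bases against 1867 in the longest coding transcript, and for Mdm2 5070 against 3132. The order below therefore depends in part on the annotation. On this scale Ccng1 led in controls at 66.3 ± 9.34 CPM per kb (SD, n = 3), followed by Bax (29.1 ± 5.57), Mdm2 (12.6 ± 0.943) and Phlda3 (9.05 ± 1.96). Trp53inp1 (8.91 ± 1.39), Trp53 (8.19 ± 0.728), Cdkn1a (5.88 ± 2.53), Cdkn2b (4.02 ± 1.63) and Gdf15 (2.69 ± 1.02) came next on that scale, and Cdkn2a was at 0. From Phlda3 down to Gdf15, each neighbour differed from the next by less than the larger of their SDs. In knockouts, Cdkn1a stood second at 51.3 ± 16.3 CPM per kb, behind Ccng1 (64.7 ± 23.7) and ahead of Bax (42.3 ± 2.56), and these 3 did not differ in order beyond their SDs. Then came Phlda3 (30.1 ± 1.18), Gdf15 (23.4 ± 4.06), Trp53inp1 (15.3 ± 4.10), Mdm2 (14.0 ± 0.836), Trp53 (12.1 ± 1.25), Cdkn2b (10.5 ± 1.41) and Cdkn2a (2.22 ± 2.21), of which Trp53inp1 and Mdm2 differed by less than the larger SD. As a difference between group means, Cdkn1a added 45.4 CPM per kb, Phlda3 21.1, Gdf15 20.7 and Bax 13.1, although Bax did not pass the test.

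The 3 knockouts did not follow 1 order across the genes. Relative to the control mean, Cdkn1a was at 11.9 in knockout 1, 6.68 in knockout 2 and 7.62 in knockout 3. Ccng1 too was highest in knockout 1, at 1.34, 0.966 and 0.623, whereas Gdf15 was highest in knockout 3 (8.86, 7.11 and 10.1) and Trp53inp1 in knockout 2 (1.41, 2.25 and 1.502). The library labelled knockout 1 was the highest knockout for 48 of the 1604 genes called higher (2.99%), against 56.9% for knockout 2 and 40.1% for knockout 3. Of the 6 genes called here, Cdkn1a was the 1 that was highest there.

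**Figure D3:**
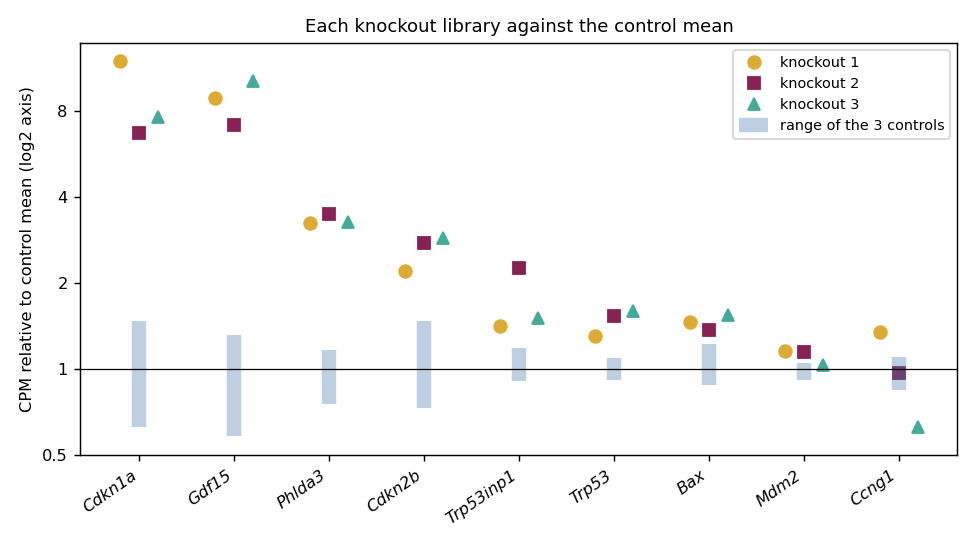
CPM of each knockout library divided by the control mean, for 9 genes (log2 vertical axis, 1 = control mean); bands show the range of the 3 controls. Cdkn1a is highest in knockout 1 (11.9), Gdf15 in knockout 3 (10.1) and Trp53inp1 in knockout 2 (2.25), and Ccng1 runs from 1.34 down to 0.623.

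A ratio of counts within a library does not depend on its scaling, so each gene was also divided by Mdm2, whose RNA did not pass the test. Cdkn1a went from 0.123 to 0.328 counts per Mdm2 count in controls to 1.19 to 2.11 in knockouts. The same ratio of Gdf15 was 0.0493 to 0.0974 in controls and 0.484 to 0.763 in knockouts. Phlda3 had 0.160 to 0.280 against 0.621 to 0.698, and Trp53 itself 0.497 to 0.538 against 0.587 to 0.799. Of the 9 genes, 8 had ratios that were higher in every knockout than in any control, beside 14.3% of all tested genes on the same ratio. Ccng1 was the exception, and Cdkn2a, at 0 in all controls, is among the 8. These ratios show unequal change within a library and not that Mdm2 stayed constant.

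Other p53 targets were taken as a list of 33 genes, all tested. Of these, 11 were called higher and 0 lower by edgeR, beside 10.6% and 6.64% of all genes. The median log2 fold change was only 0.23, and 11 of the 33 were below 0. DESeq2 called 13 higher and 2 lower, beside 2601 of 15136 genes (17.2%) that it called higher and 4882 in either direction. Called genes led with Lif, a cytokine of the interleukin-6 family, at 9, 5 and 13 counts in controls and 203, 189 and 185 in knockouts (log2 4.45, SE 0.42, adjusted p 0.0271). Psrc1, a spindle protein, held 2, 3 and 12 counts in controls and 186, 133 and 64 in knockouts (4.38, SE 0.69, adjusted p 0.0277). The receptor Eda2r rose from 0.891 ± 0.358 to 7.21 ± 1.79 CPM (SD, n = 3 each; log2 3.00, SE 0.41). Sfn, which encodes the checkpoint protein 14-3-3 sigma, rose from 5.61 ± 3.37 to 38.7 ± 24.1 CPM (SD, n = 3 each; log2 2.79, SE 0.65). The other 7 called were Rap2b, Bbc3, Btg2, Tnfrsf10b, Apaf1, Plk2 and Zmat3, at 0.64 to 1.86, and were named after their values were seen. Of the 11 called, 3 (Lif, Psrc1 and Eda2r) would not have passed the filter on low counts from the 3 controls alone. Knockout 1 was the highest knockout for 2 of the 11 (Psrc1 and Zmat3), beside 2.99% of all genes called higher.

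Genes that control p53 gave no call. Of 20 tested of 21 in that list (kinases such as Atm and Chek1, ubiquitin ligases, ribosomal proteins that bind Mdm2, and the relatives Trp63 and Trp73), 0 were called by edgeR, beside 17.2% of all genes called in either direction. Of the 20, 2 had an unadjusted p under 0.05, beside 38.6% of all genes. DESeq2 called 1, beside 4882 of all 15136 genes, and limma-voom 0, beside 2030 of 15171. The median log2 value was 0.08. The farthest from 0 was Trp63, a relative of p53 found in basal and urothelial cells, at 2.04 (SE 1.06, adjusted p 0.198), with 892 counts in knockout 2 and 29 to 97 in each other library. Chek1, the replication checkpoint kinase, was at 0.87 (SE 0.42, adjusted p 0.172).

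In the list of cyclins, their kinases, the other inhibitors and the retinoblastoma family, 2 of 16 were called higher and 1 lower (median 0.33), shares near the 10.6% and 6.64% of all genes. The other inhibitors, Cdkn1b, Cdkn1c, Cdkn2c and Cdkn2d, were not called. Cyclin D2 (Ccnd2) and the kinase Cdk6, partners that Cdkn2b inhibits, rose by log2 2.10 (SE 0.43, adjusted p 0.0317) and 1.24 (SE 0.21, adjusted p 0.0286). Rbl2, which encodes the pocket protein p130 that keeps resting cells out of cycle, fell by 0.71 on the log2 scale (SE 0.15, adjusted p 0.0327). Of 20 proliferation genes, 9 were called higher and 0 lower, beside 10.6% of all genes called higher, with 19 above 0 and a median of 1.24. Those called included Top2a (2.30, SE 0.50), Mki67 (2.26, SE 0.56), Cdk1 (2.19, SE 0.57) and Aurkb (1.97, SE 0.42), all log2 fold changes. Cdk1 and Aurkb, the 2 called genes of this list that the controls alone would not have brought past the filter, are among them. Mki67, the gene of the proliferation antigen Ki-67, went from 5.17 ± 3.85 to 24.6 ± 5.74 CPM (SD, n = 3 each). Which cells held these RNAs was not measured.

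Among the relatives of Bax in the BCL2 family, 3 of 11 tested were called higher and 1 lower, beside 10.6% and 6.64% of all genes, with a median of 0.45. Bak1, the partner of Bax in pore formation, rose from 23.4 ± 1.11 to 41.1 ± 4.69 CPM (SD, n = 3 each; log2 0.81, SE 0.14, adjusted p 0.0281). Bmf, which promotes apoptosis, and Mcl1, which opposes it, rose by 1.21 (SE 0.22) and 0.71 (SE 0.19). Bid, which links death receptors to Bax, fell by 0.90 on the log2 scale (SE 0.23, adjusted p 0.0424).

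Of 22 senescence-associated genes, mostly secreted factors, 19 were tested, 11 were called higher and 1 lower, beside 10.6% and 6.64% of all genes, and the median log2 fold change was 2.39. Timp1, an inhibitor of metalloproteinases, rose by 5.70 (SE 0.66) and the macrophage elastase Mmp12 by 4.63 (SE 0.75). The chemokine gene Cxcl2 held 0, 1 and 4 counts in controls and 19, 48 and 33 in knockouts. Like Timp1, it reached the filter's minimum in 0 of 3 controls and so was tested only through the knockouts, and of the 11 called higher 4 would not have passed from the controls alone. Glb1 was the gene called lower, and 1 of 19 is no larger a share than among all genes. It encodes the lysosomal beta-galactosidase whose activity is used as a stain for senescence, and its level fell from 176.7 ± 45.3 to 84.1 ± 18.9 CPM (SD, n = 3 each; log2 -1.07, SE 0.25, adjusted p 0.0362). Il6, Il1a and Areg did not pass the filter and were not tested. Knockout 2 was the highest knockout for 12 of the 19 and knockout 1 for 2, beside 33.0% and 37.6% of all tested genes.

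**Figure D4:**
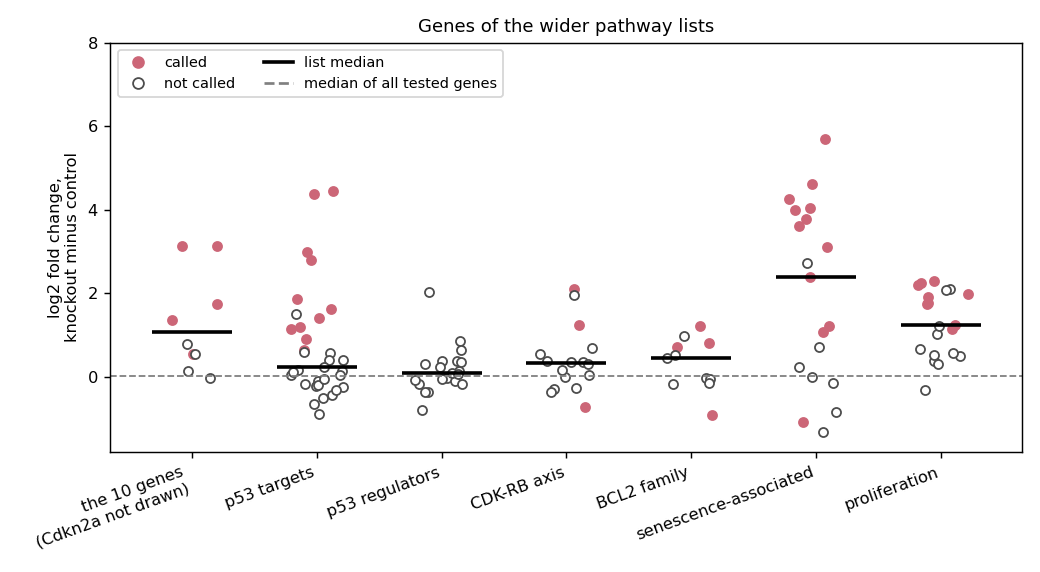
Log2 fold change (vertical axis, knockout minus control, edgeR) of each tested gene in the 10-gene set and in 6 wider lists. Cdkn2a is not drawn but enters the median of its set. Filled points were called, bars are list medians and the dashed line is the median of all tested genes (0.02); list medians run from 0.08 for p53 regulators to 2.39 for senescence-associated genes.

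The 5 genes with the profile most like that of Cdkn1a over the 6 libraries were found by the smallest root mean square distance of centred log2 CPM among 11338 genes. These were Aoc1, a diamine oxidase (distance 0.322), Socs3, a brake on cytokine signalling (0.406), Serpina10, a protease inhibitor (0.569), Uhrf1, which helps to maintain DNA methylation (0.636), and the chemokine Cxcl10 (0.656). Controls had 20.3, 8.99 and 8.52 CPM of Aoc1 and knockouts 94.9, 73.9 and 65.9 CPM, so that like Cdkn1a it was highest in control 1 and in knockout 1. Their log2 fold changes lay between 2.34 and 3.75.

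The make-up of the RNA differed between the groups beside these results, and the edgeR calls of each marker list stand beside 10.6% of all genes called higher and 6.64% called lower. DESeq2 called 17.2% of all genes higher and 4882 of 15136 in either direction. In edgeR, 38.6% of all genes had an unadjusted p under 0.05. Markers of injured tubules were called higher for 7 of 8 genes, with a summed level of 1245 to 3253 CPM in controls and 4747 to 8253 CPM in knockouts. Macrophage markers were called higher for 8 of 9 (193.5 to 221.7 against 620.7 to 2208 CPM), fibroblast markers for 4 of 8 (361.0 to 689.3 against 1060 to 4100 CPM) and lymphocyte markers for 3 of 8 (5.82 to 9.42 against 17.2 to 62.3 CPM). Neutrophil markers were called for 0 of 4 tested by edgeR and 1 by DESeq2, with 1 at an unadjusted p under 0.05 (7.11 to 12.8 against 9.28 to 32.8 CPM) and endothelial markers for 1 of 6 (397.6 to 667.1 against 670.2 to 747.3 CPM). Proximal tubule markers were called lower for 7 of 10, from 13746 to 17681 CPM in controls to 2323 to 6816 CPM in knockouts. Markers of the thick ascending limb and of the distal convoluted tubule and collecting duct, where Cre is driven, were called for 0 of 6 and 0 of 8 by edgeR and 1 each by DESeq2, with 1 each at an unadjusted p under 0.05 and sums of 5305 to 11721 against 908.1 to 6923 CPM and 2806 to 3832 against 491.3 to 3647 CPM. Kidney markers were thus present in every library. Of 5 red cell genes, Hba-a1, Hba-a2, Hbb-b1 and Hbb-b2 were listed at 0 in all of them. The remaining gene of that list, Alas2, was at 10.2 to 16.2 CPM in controls and 7.41 to 15.5 CPM in knockouts, so red cell RNA is not shown to be absent. The macrophage sum was highest in knockout 2, as were Cdkn2a, Phlda3 and Trp53inp1 but not the other 7 of the 10 genes. The part of these cell types in the values of the 10 genes was not tested.

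Control 2, with its Y-linked RNA, was also the lowest control for Cdkn1a and Phlda3. Without it the log2 fold changes were 0.55 for Trp53, 2.87 for Cdkn1a, 1.23 for Cdkn2b, 1.56 for Phlda3 and 3.19 for Gdf15. Those of Mdm2, Bax and Trp53inp1 were 0.16, 0.46 and 0.91, and that of Ccng1 was 0.02. No gene of the 10 was then called by edgeR (adjusted p of 0.118 or more), nor was any other gene tested. Of the 10, 7 had an unadjusted p under 0.05, beside 27.4% of all genes tested. Sex is not in the labels, so its part in these values was not tested beyond this fit and one with the sex-linked RNA as a covariate. The latter also gave 0 calls of 10 in edgeR, beside 0 of all 15171 genes. With it 7 of the 10 had an unadjusted p under 0.05, beside 27.8% of all genes.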

How the data were processed

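Whole-kidney poly-A RNA was measured in 3 control and 3 TfR1KO;KspCre libraries, described in the series record as biological replicates. The authors deposited raw counts per gene for each library. Per the submitters' processing notes, CASAVA 1.8.2, Trimmomatic, TopHat2 2.0.11, HTSeq and the mm9 build were used; the gene annotation and how counting treated strand are not given in the sources used here. On GENCODE M1 models no exon of the 10 genes overlapped an exon of another gene. All 100-base words of the longest coding transcript of each were absent from the coding transcripts of other genes. Pseudogenes, non-coding transcripts and the rest of the genome were not searched.

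From these counts, edgeR 4.0.16 (limma 3.58.1, R 4.3.3) kept 15171 genes by filterByExpr (minimum count 10, minimum total 15), scaled by TMM and applied the quasi-likelihood test with no covariate over all 6 libraries, with Benjamini-Hochberg adjustment. SE is the log2 fold change divided by the square root of F. Exact two-sided permutation tests used log2(CPM + 1) over 20 splits. Total counts limit precision most in knockout 3 (11501053), where 3 counts are 0.230 CPM; such floors cover counting error only. Each library was taken as 1 sample, as the replicates are described as biological. They differed by more than sampling noise (chi-square 52.9 to 125.5 per degree of freedom), which separate kidneys would do in any case.

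Genes named beyond the 10 are, per list, the called genes with the largest log2 fold changes, at most 4 up and 4 down, or the 2 largest where none was called; the 5 most like Cdkn1a among genes averaging 3 or more on the log2 CPM scale (prior count 2); Tfrc and Cdh16. A gene that this rule names is not reported here. The 10 genes, the lists and the tests were chosen with earlier results of these data known, and the p53 site search after seeing the values. Coordinates and exon lengths are from GENCODE M1 on mm9, which matched 20608 of 24422 names.

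Same-numbered libraries did not deviate together (correlations -0.13, 0.01 and 0.21), so numbers were not taken to pair them. Alternatives were 3 other scalings, 2 other filters, DESeq2 1.42.0 (the tool of the study), limma-voom, the newer quasi-likelihood fit, each library left out, the replicate block, a covariate of Xist to Y-linked RNA, and counts without the 10 highest genes.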

Additional observations from a re-analysis of the deposited data

How the results depend on the processing

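Of the 10 genes, 6 were called; the count was 9 with library size alone, 0 with the replicate block and 0 with the sex-linked covariate, and 0 to 7 when 1 library was left out. Of all 15171 genes, 2612 were called; DESeq2's Wald test called 4882, the block and the covariate 0 each, and fits without 1 library 0 to 5332. With library size alone 2985 of 3647 calls were higher in knockouts, against 1604 of the 2612. Of 124 wider pathway genes, 39 were called; the count was 56 with library size alone, 54 with DESeq2, 0 with the block or the covariate, and 0 to 53 without 1 library. Under the replicate block (edgeR), 8 of the 10 genes and 5432 of all genes had an unadjusted p under 0.05, and the smallest adjusted p among the 10 was 0.0713; with the covariate these were 7, 4221 and 0.111. Each library left out removes 1 of 6 samples; the other causes were not tested. The log2 fold change of Ccng1 turned to 0.0339 with upper quartile scaling, 0.23 with library size alone and 0.0198 with the covariate (-0.34 to 0.20 without 1 library). Tfrc turned to 0.14 with library size alone and 0.15 with the covariate (-0.96 to 0.29 without 1 library), and Cdh16 to 0.00693 with library size alone. The other 9 genes kept their direction in every alternative that tested them. With 3 libraries a group and a smallest adjusted p of 0.0271 over all genes, no call of the edgeR test over 6 libraries was far from the threshold.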
